A study of Mus musculus with 40 samples.

Results

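Levels of the 6 liver genes of the Cyp4a family of fatty acid omega-hydroxylases, Cyp4a10, Cyp4a14, Cyp4a31, Cyp4a32, Cyp4a12a and Cyp4a12b, were measured by RNA-seq in 20 mice. The genes were taken by symbol and are 6 of the 32544 gene rows of the count table. All mice were germ-free C57BL/6 males, so none carried gut microbes, and all were sampled at postnatal day 64 after 6 weeks of treatment. Each mouse received either delta-valerobetaine (VB), a trimethylated betaine that gut bacteria produce, or the vehicle, given as PBS in the library names of the control diet. Feed was either a control or a Western diet. The 4 groups of 5 mice were therefore control diet with vehicle, control diet with VB, Western diet with vehicle and Western diet with VB. The layout allows the VB effect to be measured on either diet and the 2 effects to be compared.

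Cyp4a enzymes are microsomal cytochrome P450 enzymes that add a hydroxyl group to the last carbon of a fatty acid. The omega-hydroxy fatty acid is then oxidised to a dicarboxylic acid, which is shortened in peroxisomes. In rodent liver Cyp4a10 and Cyp4a14 are textbook targets of PPARA, the nuclear receptor that senses fatty acids and drives their oxidation, while the Cyp4a12 enzymes are known as male-biased enzymes that depend on androgen and growth hormone and that make 20-HETE from arachidonic acid.

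The 6 genes lie in 1 cluster of 322.6 kb on chromosome 4 of GRCm38, from 115299046 to 115621602, in gene models of GENCODE vM21. In order along the chromosome these are Cyp4a12a (115299046 to 115332815), Cyp4a12b (115411624 to 115439034), Cyp4a14 (115486200 to 115496142), Cyp4a10 (115518264 to 115533649), Cyp4a31 (115563649 to 115579015) and Cyp4a32 (115600969 to 115621602). Cyp4a14 is on the minus strand and the other 5 are on the plus strand. Each encodes a protein of 507 to 509 amino acids. Cyp4a12a and Cyp4a12b were 98.5% identical over 1527 aligned coding bases. Cyp4a10 was 97.2% identical to Cyp4a32 and 96.6% to Cyp4a31, whereas Cyp4a14 was 75.8% to 76.9% identical to each of the other 5.

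The stretch that encodes the haem-binding loop, with the cysteine that holds the haem iron (residue 456 in Cyp4a10), shows these 3 kinds of member. It is given 5′ to 3′ from the GENCODE vM21 coding sequences, and capitals mark bases that differ from Cyp4a10. The stretch was identical in Cyp4a10, Cyp4a31 and Cyp4a32, and identical in Cyp4a12a and Cyp4a12b. It held 6 differing bases in the Cyp4a12 pair and 16 in Cyp4a14.
Cyp4a10, Cyp4a31 and Cyp4a32: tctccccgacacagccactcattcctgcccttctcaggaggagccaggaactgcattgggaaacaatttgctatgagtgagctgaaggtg
Cyp4a12a and Cyp4a12b: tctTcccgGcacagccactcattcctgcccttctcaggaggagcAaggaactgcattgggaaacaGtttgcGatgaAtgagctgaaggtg
Cyp4a14: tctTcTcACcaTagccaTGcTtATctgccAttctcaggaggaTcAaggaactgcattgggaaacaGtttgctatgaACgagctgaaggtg

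How well reads can tell the close copies apart depends on stretches like the next ones, the 90 coding bases in which the copies differ most. The first 3 cover coding bases 190 to 279, with capitals marking differences from Cyp4a10. There were 4 in Cyp4a31 and 13 in Cyp4a32.
Cyp4a10: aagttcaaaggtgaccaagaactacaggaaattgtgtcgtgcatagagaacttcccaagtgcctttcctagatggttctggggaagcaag
Cyp4a31: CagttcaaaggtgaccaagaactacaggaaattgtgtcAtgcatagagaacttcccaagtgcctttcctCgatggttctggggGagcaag
Cyp4a32: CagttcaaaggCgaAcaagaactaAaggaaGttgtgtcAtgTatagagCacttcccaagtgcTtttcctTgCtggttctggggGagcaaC
The other two cover coding bases 661 to 750, with capitals marking the 7 differences from Cyp4a12a.
Cyp4a12a: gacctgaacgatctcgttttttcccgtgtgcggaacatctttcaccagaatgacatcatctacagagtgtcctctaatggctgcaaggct
Cyp4a12b: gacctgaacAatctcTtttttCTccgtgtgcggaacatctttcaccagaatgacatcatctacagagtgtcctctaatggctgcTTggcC

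Of all 50-base windows of a member's exons, 48.9% in Cyp4a12a and 49.4% in Cyp4a12b were found word for word in another member. The share was 46.8% in Cyp4a32, 30.5% in Cyp4a10 and 20.1% in Cyp4a31. No window of Cyp4a14 was shared. How reads from shared stretches were counted is not given in the sources used here. Single values of the 3 genes close to Cyp4a10 and of the Cyp4a12 pair are therefore uncertain, sums are given beside them, and Cyp4a14 is the member that sharing touches least.

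Total counts per mouse ran from 16315342 to 24566686, of which the 6 genes held 13667 to 52133, or 0.0597% to 0.254%. Raw counts of a single member were lowest for Cyp4a14 in Western diet VB mouse 5, with 44, and for Cyp4a31, with 65 to 318 a mouse. Of 5 further Cyp4a rows in the table, 4 had no count in any mouse and the pseudogene Cyp4a28-ps had 7 in all. Mitochondrial genes took 1.99% to 4.62% of counts, the highest in Western diet vehicle mouse 4. Genes of the major urinary proteins (Mup) took 15.8% to 25.2% in Western diet VB mice and 6.25% to 13.7% in the other groups. Leaving the Mup genes out of the library sizes changed the call of no member. Circadian clock genes also differed. Their leading principal component over 21 genes, in SD units and called the clock score here, had a mean of -1.30 ± 0.39 (SD, n = 5) for control diet vehicle and -0.22 ± 0.26 for control diet VB. The corresponding Western diet means were 1.29 ± 0.13 for vehicle and 0.23 ± 0.42 for VB. The scores of single mice overlapped between the 2 VB groups and between no other groups. In the other comparisons, a fit with the score as a covariate therefore cannot separate the score from the groups. No label states when livers were collected. Library names are written differently for the 2 diets, and a handling batch that follows those names cannot be told apart from diet. In liver RNA, fewer cells of a type and less RNA per cell cannot be told apart.

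Levels are given as CPM, the usual depth-normalised unit of counts, on library sizes scaled by the trimmed mean of M values (TMM). The members fell into an abundant and a scarce set. Per kb of transcript, Cyp4a10 stood highest, at 497 CPM per kb ± 150 (SD, n = 5) in Western diet vehicle mice and 230 ± 126 in control diet vehicle mice. Cyp4a12a was next in control diet vehicle mice, at 192 ± 33.7 CPM per kb. Its range overlapped that of Cyp4a10 there, so the order of the top members did not exceed their spread. Cyp4a14 (81.0 ± 62.1) and Cyp4a12b (74.0 ± 5.32) followed in that group, with overlapping ranges. Cyp4a32 reached 14.6 ± 3.99 and Cyp4a31 2.55 ± 1.10 CPM per kb, each below every mouse's value of the Cyp4a12 genes. The gene model of Cyp4a32 holds its 1530 coding bases and almost nothing else, so its level per kb depends on that short model. In Western diet VB mice the order changed: Cyp4a10 averaged 187 ± 143, Cyp4a12a 181 ± 43.6, Cyp4a12b 101 ± 17.997 and Cyp4a14 20.2 ± 23.3 CPM per kb.

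Cyp4a10, the member with the highest mean CPM in every group but Western diet VB, differed up to 3.799-fold between mice of a group in the first 3 groups and 12.2-fold in Western diet VB mice. In control diet vehicle mice 1 to 5 its level was 212, 569, 197, 749 and 699.7 CPM. Control diet VB mice had 907, 539, 494, 870.4 and 864 CPM. Western diet vehicle mice had 749, 1393, 692, 1289 and 1121 CPM. The 2 low control diet vehicle mice, 1 and 3, lay below all 10 mice of the next groups. In Western diet VB mice Cyp4a10 was at 259, 282, 505, 858 and 70.3 CPM, so mouse 4 lay within the vehicle range and mouse 5 was the lowest of all 20 mice. Every pair of groups overlapped.

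Cyp4a14, the other member known for its induction through PPARA, spread most. It was at 48.2, 264, 28.9, 361 and 351 CPM in control diet vehicle mice, where mice 1 and 3 were again low. Control diet VB mice had 923, 277, 287, 660.1 and 478 CPM. On the Western diet, vehicle mice had 328, 570.1, 180.3, 292 and 215 CPM. Western diet VB mice had 22.9, 19.3, 65.7, 153 and 2.11 CPM, a 72.2-fold range in which mouse 4 was the highest and mouse 5 the lowest. All 5 lay below all 5 Western diet vehicle mice and below all 5 control diet VB mice. How many of all genes tested separate 2 groups in this way was not counted. Such gaps, here and below, therefore only describe the members.

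**Figure D1:**
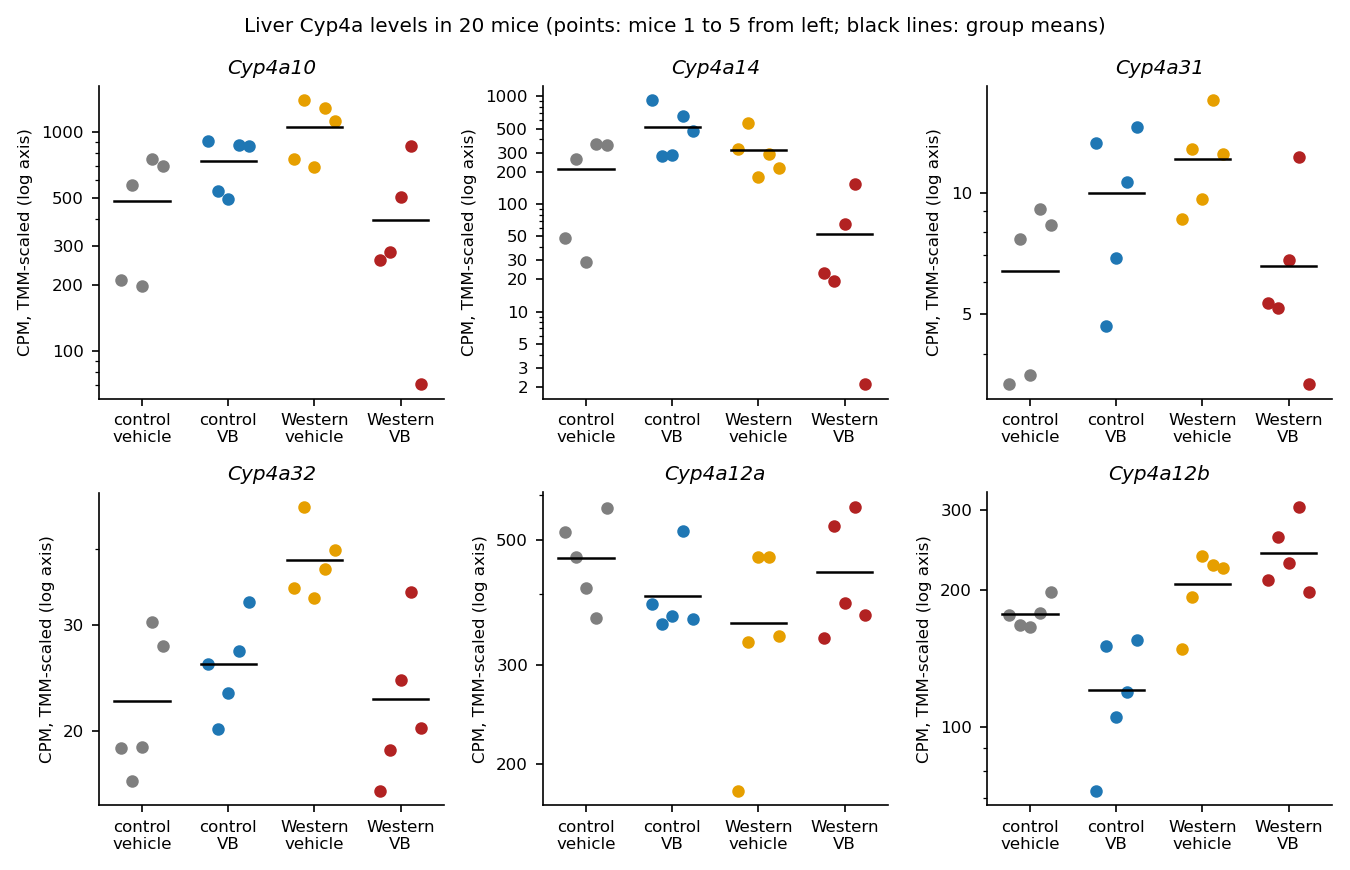
CPM of each Cyp4a gene (log axis, different range in each panel) in the 4 groups, with 1 point per mouse and a black line at the group mean. Cyp4a14 of Western diet VB mice (2.11 to 153 CPM) lies below the Western diet vehicle mice (180.3 to 570.1 CPM), while Cyp4a12a overlaps in all groups.

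The 2 scarce copies close to Cyp4a10 differed less between groups. On the control diet the mean of Cyp4a31 was 6.41 ± 2.75 CPM with vehicle and 10.01 ± 4.18 with VB (SD, n = 5). On the Western diet it was 12.1 ± 3.25 CPM with vehicle and 6.60 ± 3.39 with VB, and every pair of groups overlapped. Cyp4a32 was at 18.8, 16.5, 18.9, 30.3 and 27.7 CPM in control diet vehicle mice and at 25.8, 20.2, 23.1, 27.1 and 32.7 CPM in control diet VB mice. Western diet vehicle mice had 34.5, 46.9, 33.2, 37.1 and 39.9 CPM, all above both control diet groups. Western diet VB mice had 15.96, 18.6, 24.3, 34.0 and 20.3 CPM, where mouse 4 alone reached the vehicle range.

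The Cyp4a12 genes, the male-biased members, were steadier. Cyp4a12a was at 516, 465, 410.1, 363 and 568 CPM in control diet vehicle mice and at 385, 355, 366, 519 and 362 CPM in control diet VB mice. On the Western diet, vehicle mice had 179, 330.1, 465, 465 and 338 CPM and VB mice had 335, 529, 386, 572 and 368 CPM, and all groups overlapped. Cyp4a12b was at 177, 168, 166, 178 and 198 CPM in control diet vehicle mice. Control diet VB mice had 72.5, 151, 105, 119 and 155 CPM, all below those of vehicle mice. Western diet vehicle mice had 149, 193, 238, 228 and 224 CPM, and Western diet VB mice had 211, 262, 229.5, 305 and 198 CPM. Western diet VB mice thus lay above both control diet groups in Cyp4a12b, the nearest pair of mice being 198.4 and 197.9 CPM.

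The first comparison was VB against vehicle on the control diet. The means of Cyp4a10, Cyp4a14, Cyp4a31 and Cyp4a32 were higher with VB and those of the Cyp4a12 pair lower, but none of the 6 passed the test. In edgeR's quasi-likelihood test with Benjamini-Hochberg adjustment over 12616 genes, 0 of 6 members were called at an adjusted p under 0.05, where 0.151% of all genes tested were called. At an unadjusted p under 0.05 there was 1 member, beside 1354 of all 12616 genes, and DESeq2 and limma-voom also called 0. That member was Cyp4a12b, at -0.55 on the log2 scale (SE 0.17, 95% interval -0.90 to -0.21, adjusted p = 0.187), lower in 5 of 5 VB mice than in any vehicle mouse. Cyp4a14 was at 1.32 (SE 0.81, 95% interval -0.40 to 3.04, adjusted p = 0.591) and Cyp4a10 at 0.60 (SE 0.51, 95% interval -0.47 to 1.66). These intervals are wide and hold changes in either direction.

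VB against vehicle on the Western diet gave lower means for Cyp4a10, Cyp4a14, Cyp4a31 and Cyp4a32. Cyp4a32 fell by 0.76 on the log2 scale (SE 0.19, adjusted p = 0.0165), or 1.69-fold. It was the 1 of 6 members called, where 7.19% of all genes tested were called. Leaving out Western diet vehicle mouse 2 ended the call (adjusted p = 0.0506), and with the clock score as a covariate the log2 change was -0.52 (adjusted p = 0.769). Cyp4a32 shares sequence with Cyp4a10 and Cyp4a31, and the sum of these 3 genes was not called in edgeR's test (-1.37, SE 0.48, adjusted p = 0.1003). Cyp4a14 was 6.03-fold lower by the fitted means, at -2.59 (SE 0.85, 95% interval -4.39 to -0.79), which missed the threshold at an adjusted p of 0.0795. Cyp4a10 was at -1.41 (SE 0.51, 95% interval -2.49 to -0.33, adjusted p = 0.115) and Cyp4a31 at -0.87 (SE 0.36, adjusted p = 0.166). The Cyp4a12 genes had the other sign, Cyp4a12a at 0.30 (SE 0.21, adjusted p = 0.467) and Cyp4a12b at 0.23 (SE 0.17, adjusted p = 0.506).

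Of the 20 fits that each left out a mouse, 19 left Cyp4a10, Cyp4a14 and Cyp4a31 uncalled in that comparison. Adjusted p rose to as much as 0.212 for Cyp4a10, 0.160 for Cyp4a14 and 0.328 for Cyp4a31 in edgeR's test. Their log2 changes shrank to as little as -1.14, -2.275 and -0.70. The 1 fit that called them left out Western diet VB mouse 4, the mouse with the highest level of each in its group. Without mouse 4 Cyp4a14 was at -3.52 (adjusted p = 0.0233), Cyp4a10 at -1.91 (adjusted p = 0.0293) and Cyp4a31 at -1.21 (adjusted p = 0.0377) in edgeR's test, and 4 of 6 members were called. That mouse had 21723371 counts, the median of its group, and a mitochondrial share of 3.33%, the highest of its group, whose part in these values was not tested. DESeq2 called 3 members with all mice, Cyp4a32, Cyp4a14 (adjusted p = 0.0152) and Cyp4a10 (adjusted p = 0.0299). Limma-voom called 2, Cyp4a32 and Cyp4a14 (adjusted p = 0.0301).

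**Figure D2:**
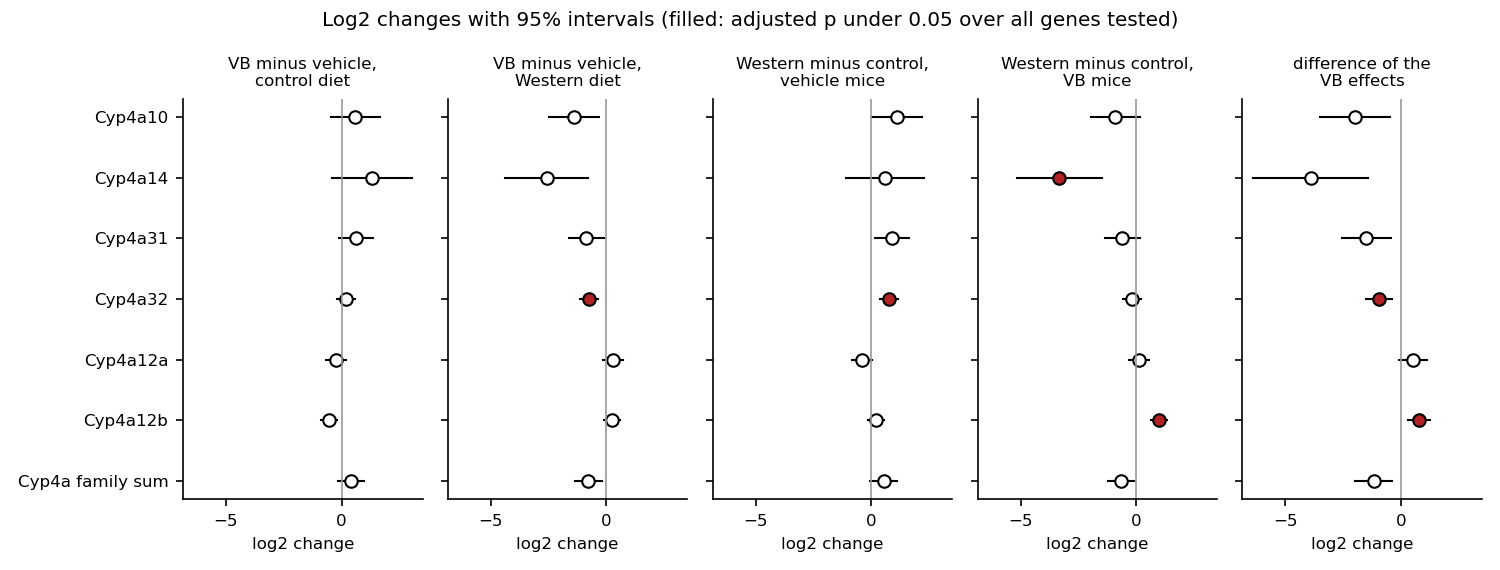
Log2 changes (x axis) of the 6 genes and their sum (y axis) in 5 comparisons, with 95% intervals and filled points where edgeR's adjusted p was under 0.05. Cyp4a14 has the widest intervals (-4.39 to -0.79 for VB on the Western diet) and Cyp4a32 and Cyp4a12b the narrowest.

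The diet was compared first in vehicle mice. Cyp4a32 rose by 0.77 on the log2 scale with the Western diet (SE 0.19, adjusted p = 0.00694), or 1.71-fold, with all 5 Western diet mice above all 5 control diet mice. It was the 1 of 6 members called, where 16.5% of all genes tested were called, so the share of members called was close to that of all genes. The call held without any 1 of the 20 mice and ended with the clock score as a covariate (0.20, adjusted p = 0.996). Cyp4a10 was at 1.11 (SE 0.51, 95% interval 0.04 to 2.19, adjusted p = 0.157) and Cyp4a31 at 0.91 (SE 0.36, adjusted p = 0.0946). The sum of Cyp4a10, Cyp4a31 and Cyp4a32 was at 1.10 (SE 0.48, adjusted p = 0.136 in edgeR's test), which was not called. Cyp4a14 was at 0.59 (SE 0.80, adjusted p = 0.697), Cyp4a12a at -0.39 (SE 0.21, adjusted p = 0.233) and Cyp4a12b at 0.22 (SE 0.17, adjusted p = 0.425).

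In VB mice the diet comparison called other members. Cyp4a12b rose by 1.00 on the log2 scale with the Western diet (SE 0.17, 95% interval 0.65 to 1.35, adjusted p = 0.000634), from 121 ± 34.3 to 241 ± 43.1 CPM (SD, n = 5), which is 2.00-fold. Cyp4a14 fell by 3.32 (SE 0.88, 95% interval -5.17 to -1.46, adjusted p = 0.0317), or 9.98-fold, from 525 ± 272 to 52.5 ± 60.7 CPM. In both genes all 5 mice of a group lay apart from all 5 of the other, and the share of all genes tested that did so was not counted. These were 2 of 6 members, where 6.44% of all genes tested were called. The call of Cyp4a12b held without any 1 of the 20 mice (adjusted p at most 0.00302), and both calls held with the clock score as a covariate (adjusted p = 0.00272 for Cyp4a12b and 0.0375 for Cyp4a14). The call of Cyp4a14 ended without control diet VB mouse 1 or 4 or Western diet VB mouse 1, 2 or 3, with an adjusted p of 0.0695 at most. Because Cyp4a12a was at 0.14 (SE 0.21, adjusted p = 0.736) and the pair shares sequence, the sum of Cyp4a12a and Cyp4a12b was tested too. It was at 0.39 (SE 0.17, adjusted p = 0.181), which was not called.

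Whether the VB effect depended on the diet was tested as the difference of the VB effects, Western diet minus control diet. Cyp4a32 was lower by this measure, at -0.96 (SE 0.27, adjusted p = 0.0311), and Cyp4a12b higher, at 0.78 (SE 0.23, adjusted p = 0.0446). These were 2 of 6 members, 1 in each direction, where 7.64% of all genes tested were called. Both calls lay near the threshold. In edgeR's test the sum of Cyp4a10, Cyp4a31 and Cyp4a32 was at -1.96 (SE 0.68, adjusted p = 0.0921) and was not called. The sum of the Cyp4a12 pair, at 0.58 (SE 0.24, adjusted p = 0.159), was not called either. Among the 20 fits that each left out a mouse, Cyp4a32 was called in 10 (adjusted p 0.00463 to 0.0646) and Cyp4a12b in 6 (adjusted p 0.0260 to 0.0833). With the clock score as a covariate neither was called (adjusted p = 0.987 and 0.972). Cyp4a14 had the largest difference, -3.91 (SE 1.18, 95% interval -6.39 to -1.43), with an adjusted p of 0.0520, and Cyp4a10 was at -2.01 (SE 0.72, adjusted p = 0.105). Without Western diet VB mouse 4, Cyp4a14 (-4.84, adjusted p = 0.0164), Cyp4a10 (-2.51, adjusted p = 0.0319) and Cyp4a31 (-1.85, adjusted p = 0.0200) were called and Cyp4a12b was not (adjusted p = 0.0805). Among the 20 fits that left out a mouse, Cyp4a10 was called in 1 (adjusted p up to 0.179) and Cyp4a31 in 2 (up to 0.140). With all mice, DESeq2 called 5 of 6 members, Cyp4a12a being the exception, limma-voom called 3, and limma-voom with quality weights called 4. Cyp4a14 was called in 5 of 12 fits with all mice under another setting (adjusted p 0.00839 to 0.996) and in 2 of the 20 that left out a mouse, the other being without Western diet vehicle mouse 4 (adjusted p = 0.0478).

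Western diet VB mice set against control diet vehicle mice gave 0 of 6 called members in edgeR's test, DESeq2 and limma-voom, where edgeR called 3.99% of all genes tested. At an unadjusted p under 0.05 there were 2 members, beside 2032 of all 12616 genes. These were Cyp4a14 at -2.0014 (SE 0.84, adjusted p = 0.231) and Cyp4a12b at 0.44 (SE 0.17, adjusted p = 0.158). Comparisons that use the same group share its 5 mice: the low values of Western diet VB mice enter 4 of these tests, and the high Cyp4a32 of Western diet vehicle mice enters 3.

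The sum over all 6 genes does not depend on how counted reads were divided among copies. It does depend on whether reads from shared stretches were counted at all, which is not given. It was 1366 ± 448 CPM (SD, n = 5) in control diet vehicle mice, 1814 ± 481 in control diet VB mice, 1978 ± 463 in Western diet vehicle mice and 1156 ± 487 in Western diet VB mice. Every mean lay within the range of another group, and edgeR's test called no change of the sum. The log2 change was 0.41 (SE 0.27, adjusted p = 0.622) for VB on the control diet and -0.78 (SE 0.27, adjusted p = 0.0969) for VB on the Western diet. The difference of these effects was -1.18 (SE 0.39, adjusted p = 0.0685). DESeq2 called the sum in the last 2 of these (adjusted p = 0.0315 and 0.0172). Without Western diet VB mouse 4 the sum was called for VB on the Western diet (-1.04, adjusted p = 0.0163) and for the difference (-1.45, adjusted p = 0.0139). Among the 20 fits that left out a mouse, these were 1 of 1 call for VB on the Western diet (adjusted p up to 0.216) and 1 of 2 for the difference (up to 0.131). The sum of Cyp4a10, Cyp4a31 and Cyp4a32 was at -1.37 (SE 0.48, adjusted p = 0.1003) for VB on the Western diet, within 0.04 of Cyp4a10 alone. The 2 values are close because Cyp4a10 made up most of that sum. Its means were 1049 of 1099 CPM in Western diet vehicle mice and 395 of 424 CPM in Western diet VB mice. The closeness therefore does not check how reads were divided among the copies.

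**Figure D3:**
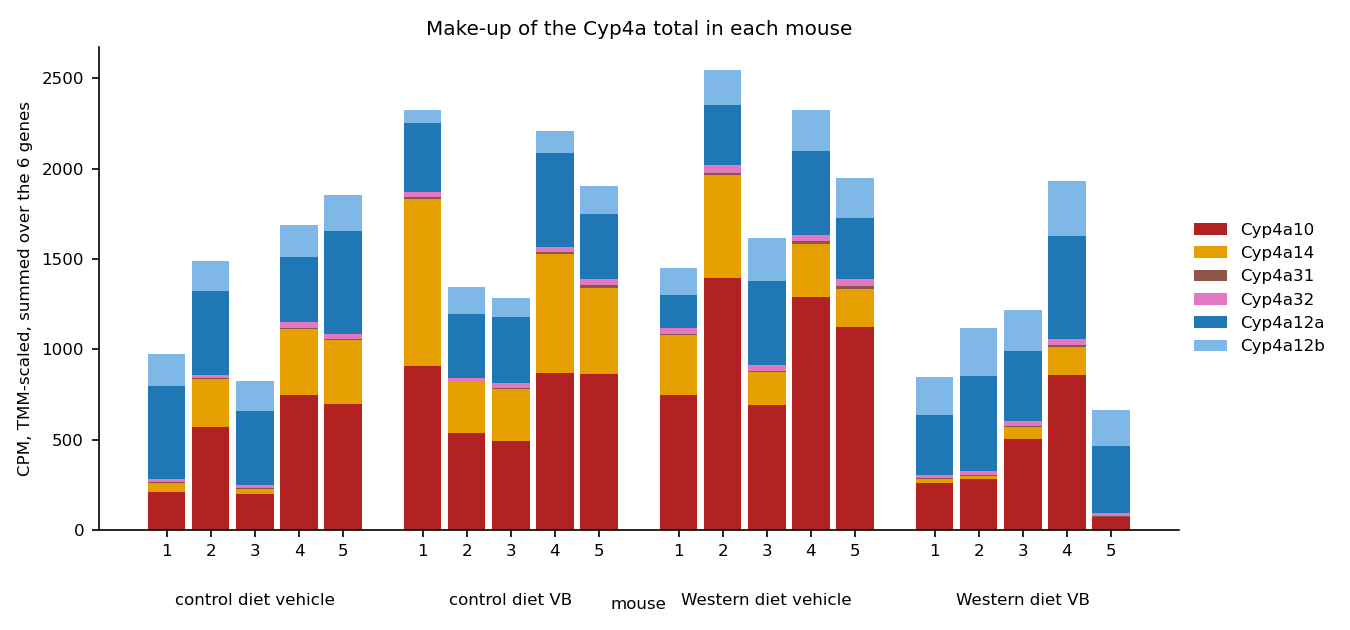
Summed CPM of the 6 Cyp4a genes in each mouse (bars from 0, mice 1 to 5 of each group), divided by gene. In Western diet VB mice the Cyp4a12 pair makes up 45.4% to 85.5% of the sum and Cyp4a14 at most 7.89%.

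The make-up of the sum was compared between groups as well as its size. Cyp4a12a and Cyp4a12b together held 51.4% ± 17.9 of the family's CPM (SD, n = 5) in control diet vehicle mice, 30.01% ± 7.40 in control diet VB mice, 29.1% ± 8.96 in Western diet vehicle mice and 63.3% ± 16.1 in Western diet VB mice. Cyp4a14 held 27.5% ± 7.64 in control diet VB mice and 3.61% ± 3.03 in Western diet VB mice. The size of these shares depends on whether reads from shared stretches were counted. Of 50-base windows, 48.9% were shared in Cyp4a12a, 30.5% in Cyp4a10 and none in Cyp4a14. A ratio within a mouse needs no scaling between libraries. The log2 ratio of the summed Cyp4a10, Cyp4a14, Cyp4a31 and Cyp4a32 to the summed Cyp4a12 pair was compared by an exact permutation test (two-sided, 5 against 5 mice, smallest possible p = 0.00794). Benjamini-Hochberg adjustment ran over the 4 comparisons, but over all genes tested for the sum. Calls of the ratio and of the sum therefore cannot be set against each other. For VB on the Western diet the sum had an unadjusted p of 0.0103 in edgeR's test.

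On the Western diet the ratio was lower with VB. In Western diet vehicle mice 1 to 5 the log2 ratio was 1.77, 1.95, 0.38, 1.24 and 1.31, and in Western diet VB mice it was -0.85, -1.28, -0.03, 0.27 and -2.56. All 5 VB mice lay below all 5 vehicle mice, by 2.22 on average (exact permutation p = 0.00794, the smallest possible, adjusted p = 0.0159). On the control diet the ratio was higher with VB. Vehicle mice had -1.30, 0.44, -1.21, 1.09 and 0.50, and VB mice had 2.03, 0.73, 0.78, 1.30 and 1.42, a difference of 1.35 (exact permutation p = 0.0397, adjusted p = 0.0397). These groups overlapped, with 3 of 5 VB mice above all vehicle mice.

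For the diet, the ratio was higher by 1.43 in Western diet than in control diet vehicle mice (exact permutation p = 0.0317, adjusted p = 0.0397). In VB mice it was lower by 2.15 on the Western diet (exact permutation p = 0.00794, adjusted p = 0.0159), again without overlap. Both differences without overlap held in each of the 10 tests that left out a mouse. The call for VB on the control diet held in 3 of 10 and that for the diet in vehicle mice in 2 of 10, with an adjusted p of 0.0794 at most. With 4 against 5 mice these tests also have less room for a small p.

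**Figure D4:**
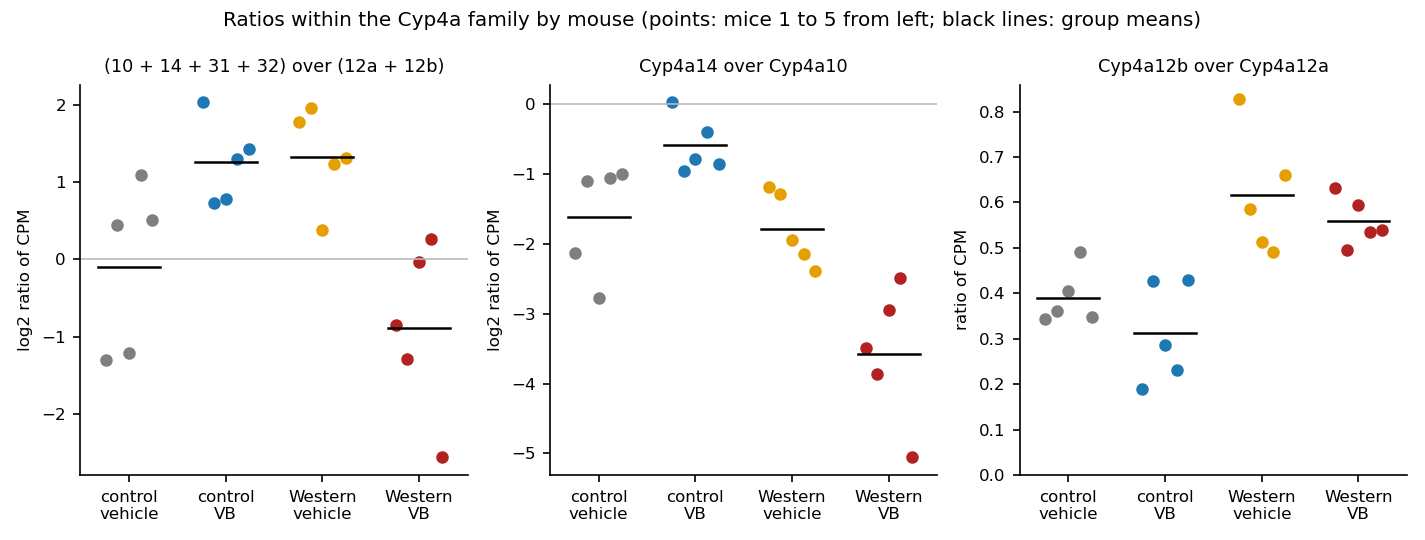
Ratios between Cyp4a genes within each mouse, on a log2 axis in the first 2 panels and a linear axis from 0 in the last, with black lines at group means. In the first panel Western diet VB mice (-2.56 to 0.27) lie below both Western diet vehicle mice (0.38 to 1.95) and control diet VB mice (0.73 to 2.03).

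Ratios between single members were described after their values were seen and were not tested. On the control diet the log2 ratio of Cyp4a14 to Cyp4a10 had a mean of -1.61 ± 0.80 with vehicle and -0.59 ± 0.41 with VB (SD, n = 5). On the Western diet the means were -1.79 ± 0.53 with vehicle and -3.57 ± 0.98 with VB, so Cyp4a14 was lowest relative to Cyp4a10, too, in the last group. The ratio of Cyp4a12b to Cyp4a12a was 0.39 ± 0.06 and 0.31 ± 0.11 in control diet vehicle and VB mice. On the Western diet it was 0.62 ± 0.14 with vehicle and 0.56 ± 0.05 with VB, and the lowest Western diet value (0.490) lay just under the highest control diet value (0.491). Since these genes share 48.9% or more of their windows, a ratio between them depends on how shared reads were counted.

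Within groups, Cyp4a10, Cyp4a14, Cyp4a31 and Cyp4a32 were high in the same mice. The deviations of log2 CPM from the group means correlated at r = 0.97 between Cyp4a10 and Cyp4a14 over 20 mice (Spearman's rho 0.93), and at r = 0.93 without the 2 mice farthest from the median. Cyp4a14 shares no 50-base window with Cyp4a10. The values were 0.88 for Cyp4a10 and Cyp4a31, 0.65 for Cyp4a10 and Cyp4a32, and 0.53 for Cyp4a12a and Cyp4a12b. Between these 4 genes and the Cyp4a12 pair they were lower, 0.28 for Cyp4a10 and Cyp4a12a and 0.13 for Cyp4a14 and Cyp4a12b. These are descriptions over mice that share group means and library depth, and the close copies share reads.

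Outside the family, the 5 genes whose log2 CPM followed the sum of Cyp4a10, Cyp4a14, Cyp4a31 and Cyp4a32 most closely, among 11198 genes with a mean of at least 1 CPM, were Cyp2c38 (Pearson r = 0.93), Acadl (0.92), Maob (0.92), Bche (0.89) and Rdh16 (0.88). Spearman's rho was 0.77 for Cyp2c38, 0.92 for Acadl and 0.77 for Maob, and r after removal of group means was 0.88 for each of these 3. Acadl encodes long-chain acyl-CoA dehydrogenase of mitochondrial fatty acid oxidation, and Maob a monoamine oxidase of the outer mitochondrial membrane. The closest genes to the sum of the Cyp4a12 pair followed it less, with r of 0.71 for Ercc3, 0.70 for Hs3st6, 0.68 for Tbc1d23, 0.67 for Noc4l and 0.67 for Ift74. The values describe 20 mice in 4 groups, and the highest of 11198 correlations are high in part because they were picked as such.

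Genes that work beside the Cyp4a enzymes were counted from lists chosen with earlier results of these data known. For scale in all lists, edgeR called 1125 of all 12616 genes up and 958 down with the Western diet in vehicle mice. With VB on the Western diet it called 420 up and 487 down. It called 407 up and 406 down with the Western diet in VB mice, and 458 up and 506 down for the difference of the VB effects. The first list holds other Cyp4 enzymes, of which 8 of 14 passed the filter on low counts. For the Western diet in vehicle mice, 1 rose and 2 fell, with a median log2 change of 0.04, beside 0.02 over all genes tested. Cyp4f15 rose by 0.51 (SE 0.08, adjusted p = 0.000112), while Cyp4f14, known to oxidise leukotrienes and long-chain fatty acids, fell by 0.68 (SE 0.11, adjusted p = 0.000145). With VB on the Western diet 1 of 8 rose, Cyp4f14 at 0.37 (SE 0.11, adjusted p = 0.0454), and the list's median was -0.16.

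Electrons reach microsomal P450 enzymes through the reductase Por and through cytochrome b5. Por was at 279 ± 82.1 CPM (SD, n = 5) in control diet vehicle mice, 472 ± 63.0 in control diet VB mice, 777 ± 104 in Western diet vehicle mice and 401 ± 58.1 in Western diet VB mice. It rose by 1.48 with the Western diet in vehicle mice (SE 0.17, adjusted p = 1.78e-06) and fell by 0.95 with VB on the Western diet (SE 0.16, adjusted p = 0.00110). The difference of the VB effects was -1.71 (SE 0.23, adjusted p = 0.000182). Of the 4 electron donors 1 rose and 2 fell with the Western diet in vehicle mice, the latter being Cyb5b and Cyb5r3, and Por was the 1 called with VB on the Western diet.

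Omega-hydroxy fatty acids are oxidised by alcohol and aldehyde dehydrogenases. Aldh3a2, the fatty aldehyde dehydrogenase, was at 221 ± 53.9, 249.6 ± 14.7, 474 ± 47.4 and 259 ± 52.9 CPM in control diet vehicle, control diet VB, Western diet vehicle and Western diet VB mice. It rose by 1.10 with the Western diet in vehicle mice (SE 0.15, adjusted p = 1.66e-05) and fell by 0.87 with VB on the Western diet (SE 0.15, adjusted p = 0.000957). Of the 5 tested dehydrogenases it was the 1 called with VB on the Western diet. With the diet in vehicle mice 1 more was called, Adh4, which fell by 0.44 (SE 0.14, adjusted p = 0.0316).

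The list for transport and peroxisomal oxidation of dicarboxylic acids holds 15 genes, all tested. With the Western diet in vehicle mice 11 rose and none fell (median log2 change 0.57), where 16.5% of all genes tested were called. With VB on the Western diet 11 fell and none rose (median -0.61, beside -0.02 over all genes tested), where 7.19% of all genes were called. Ehhadh, the peroxisomal bifunctional enzyme, rose by 0.69 (SE 0.15, adjusted p = 0.00208) and fell by 0.63 (SE 0.15, adjusted p = 0.00962) in these comparisons. Abcd2, a transporter of very long acyl chains, fell by 1.91 with VB on the Western diet (SE 0.30, adjusted p = 0.000583). The VB effects differed between diets in 10 of 15, all lower on the Western diet (median -0.67).

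Ppara itself was at 79.1 ± 26.2, 108 ± 11.2, 169 ± 19.2 and 134 ± 14.2 CPM in the same order of groups. It rose by 1.09 with the Western diet in vehicle mice (SE 0.16, adjusted p = 3.83e-05). Its VB effect on the Western diet was -0.33 (SE 0.16, adjusted p = 0.236) and the difference of the VB effects was -0.77 (SE 0.22, adjusted p = 0.0339). Of 20 other PPARA target genes 13 rose and none fell with the Western diet in vehicle mice (median 0.54), and 12 fell and none rose with VB on the Western diet (median -0.56). Among them the fatty acid carrier Cd36 rose by 1.79 (SE 0.32, adjusted p = 0.000622) and fell by 1.79 (SE 0.32, adjusted p = 0.00204). The difference of the VB effects was called in 13 of 20, all lower on the Western diet (median -0.75). On the control diet none of these 20 genes was called with VB in edgeR's test, and 6 were higher at an unadjusted p under 0.05, where 1354 of all 12616 genes passed in either direction.

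**Figure D5:**
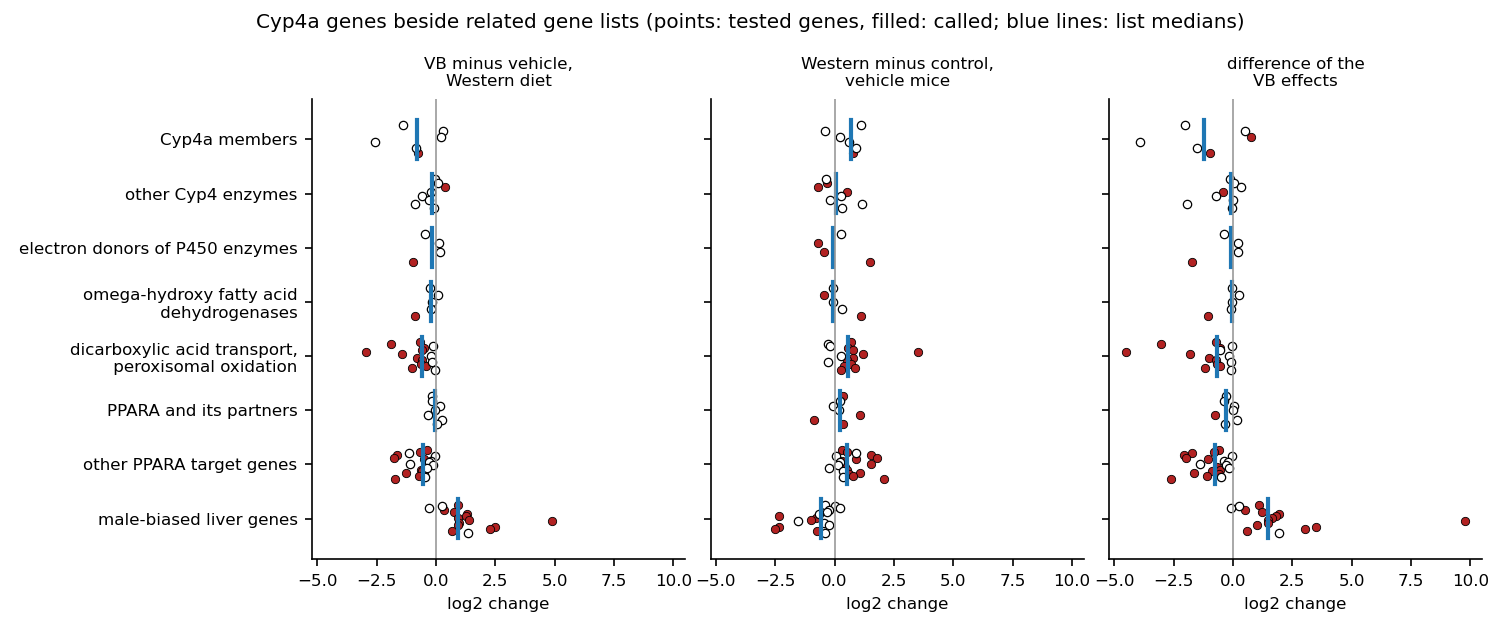
Log2 changes (x axis) of single genes in 8 lists (y axis) for 3 comparisons, with filled points for genes called by edgeR and blue lines at list medians. The lists of peroxisomal oxidation and of other PPARA targets have medians of -0.61 and -0.56 for VB on the Western diet, and the male-biased list 0.94.

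The Cyp4a12 genes were set beside 16 other male-biased liver genes. With VB on the Western diet 13 of 16 rose and none fell (median log2 change 0.94), including Hsd3b5 at 1.38 (SE 0.22, adjusted p = 0.000880) and Elovl3 at 1.26 (SE 0.22, adjusted p = 0.00156). In the same comparison Cyp4a12a and Cyp4a12b were at 0.30 and 0.23 and were not called. With the Western diet in vehicle mice 6 of 16 fell and none rose (median -0.55), and in VB mice 8 rose and none fell (median 0.74), where Cyp4a12b rose too. Of 9 genes of growth hormone signalling 1 was called in each of 3 comparisons, near the share of all genes (6.44% to 16.5%). Cish fell by 3.07 with the Western diet in VB mice (SE 0.75, adjusted p = 0.0211), and Stat5b fell by 0.70 with it in vehicle mice (SE 0.14, adjusted p = 0.00125). Socs2 had a difference of the VB effects of -3.14 (SE 0.87, adjusted p = 0.0348).

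Several measures moved with the groups beside these results. The clock output gene Dbp was at 3.61 ± 4.88, 30.2 ± 11.98, 104 ± 15.5 and 47.6 ± 24.6 CPM in control diet vehicle, control diet VB, Western diet vehicle and Western diet VB mice. With the clock score as a covariate the log2 change of Cyp4a10 for the diet in vehicle mice turned from 1.11 to -1.09 and that of Cyp4a14 from 0.59 to -3.22, neither called before or after. Of the member calls, only the 2 for the Western diet in VB mice held in it. The scores of those groups overlapped (-0.56 to 0.05 on the control diet and -0.25 to 0.72 on the Western diet), while those of no other groups did. In the other comparisons the score and the groups cannot be told apart by this fit. The part of the clock in the other results was not tested further.

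Markers of hepatocytes, of which 5 of 6 were used, summed to 34232 to 56422 CPM, and edgeR's test called 0 of 5 for VB on the Western diet. At an unadjusted p under 0.05, 2 were higher there, Apoa1 at 0.30 and Cps1 at 0.40, beside 2560 of all 12616 genes in either direction. The remaining hepatocyte markers went both ways: Serpina1c 0.12, Ttr -0.15 and Alb -0.25. Among markers of other liver cells, the bile duct marker Sox9 (1 of 5) rose by 0.94 with VB on the Western diet (SE 0.22, adjusted p = 0.0110). No stellate or sinusoidal endothelial marker was called there, where 7.19% of all genes tested were called. The other bile duct markers were not called and went both ways: Krt19 1.095, Epcam 0.42, Krt7 -0.41 and Spp1 -0.59. The summed CPM of the bile duct list had a median of 43.8 with vehicle and 37.1 with VB on the Western diet. With the Western diet in vehicle mice Sox9 and the stellate marker Reln (1 of 6) fell and the endothelial marker Stab2 (1 of 5) rose. These counts were near the share of all genes tested that were called there, 16.5%. The median log2 change of the endothelial list was -0.17 in that comparison. With the Western diet in VB mice, where Cyp4a12b and Cyp4a14 were called, the hepatocyte marker Alb (1 of 5) fell by 0.52 (SE 0.14, adjusted p = 0.0275). The other hepatocyte markers were not called and went both ways: Serpina1c 0.099, Apoa1 0.0012, Ttr -0.069 and Cps1 -0.29 (list median -0.069). The stellate markers Dcn and Reln (2 of 6) fell there by 0.71 and 0.65, and the adipocyte marker Cfd and the kidney marker Lrp2 rose by 4.05 and 3.37. The other stellate markers were not called: Col1a1 was at 0.44, Col3a1 at -0.017, Des at -0.18 and Lrat at -0.19 (list median -0.18). Of all genes tested, 6.44% were called in that comparison. The 5 adipocyte markers summed to 0.223 to 2.90 CPM on the control diet, 30.3 to 266 CPM in Western diet vehicle mice and 5.15 to 48.6 CPM in Western diet VB mice. Nearly all of this was Cfd, the 1 tested marker, while Lep was at 0 in 3 groups. Kidney tubule, where Cyp4a genes are also expressed, was represented by 5 markers. Kap, Umod and Slc12a1 were at 0 in all 20 mice and the sum never exceeded 4.57 CPM. Lrp2, the 1 tested kidney marker, was at 0.338 ± 0.153 CPM with vehicle and 1.93 ± 1.57 CPM with VB on the Western diet and rose by 2.49 (SE 0.56, adjusted p = 0.00820). The part of these markers in the Cyp4a results was not tested.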

How the data were processed

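Raw whole-number counts per gene for 40 lane files, 2 a mouse, were deposited by the authors. GRCm38 is the build named in the submitters' processing notes. Aligner, counter, strand setting and the handling of reads shared by copies were not given in the sources used here. The 2 lanes of each mouse were summed, since they differed far less (chi-square per degree of freedom 1.33 to 1.49) than mice did (at least 10.3). For 1 lane file the title reads VB and the treatment label vehicle. Because the second lane of that title was the same library, its mouse stayed in the VB group.

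Samples were grouped by title, and mice, 5 a group, were the replicates. In edgeR's fit the 4 groups shared 1 estimate of the spread of each gene. A p-value for 2 groups therefore also draws on the spread in the groups not compared. R 4.3.3 was used with edgeR 4.0.16, limma 3.58.1 and DESeq2 1.42.0. The filter (filterByExpr, minimum count 10, minimum total 15) kept 12616 genes that held 99.95% of counts. After TMM scaling, 1 robust quasi-likelihood model of edgeR covered the 4 groups. Benjamini-Hochberg adjustment ran over all genes tested, with calls at an adjusted p under 0.05. Sums replaced their members in the same table and were tested likewise. Log2 CPM used a prior count of 2. The fitting procedure was tested on simulated data.

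All 6 members were named in every comparison, together with up to 4 genes of a list with the smallest p and with Ppara, Por, Ehhadh, Aldh3a2, Dbp, Elovl3 and Hsd3b5. A gene that the rule also names is not reported here. For likeness the 5 most correlated genes outside the family were named. Members and lists were chosen with earlier results of these data known. Alternatives were other scalings and filters, DESeq2, limma-voom, fits restricted to the groups compared, a replicate block, each lane alone, the clock score as a covariate, library sizes without Mup genes, and fits without each mouse. In the list of hepatocyte markers 1 gene was not used here.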

Additional observations from a re-analysis of the deposited data

Results flagged for a closer look

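One mouse stood apart from its group. Cyp4a12a was at 518.7 CPM in control diet VB mouse 4, while the other 4 mice of that group had 355 to 385 CPM. The gap to the nearest mouse was 0.814 of the group's range, above Dixon's critical value at 95% for 5 samples. In all 28 groups were looked at in this way, and chance flags about 5% of groups, so 1 such mouse among them is unremarkable. Its Cyp4a12b was at 119 CPM, in the middle of its group.

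The VB effect differed between the diets in 2 members by the test of the difference itself. For Cyp4a32 the difference was -0.957 on the log2 scale, with means of 22.4 and 25.8 CPM in vehicle and VB mice on the control diet and of 38.3 and 22.6 CPM on the Western diet. For Cyp4a12b the difference was 0.779, with means of 177 and 121 CPM on the control diet and of 206 and 241 CPM on the Western diet. Both calls were lost in many of the fits that left out 1 mouse. Neither the sum of Cyp4a10, Cyp4a31 and Cyp4a32 nor that of the Cyp4a12 pair was called for the difference in edgeR's test.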

How the results depend on the processing

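The direction of a member's change and its side of the threshold were the same in all 36 member values under scaling by relative log expression, with Mup genes left out of library sizes and in lane 2 alone. Without a filter on low counts, 1 member was called for the Western diet in VB mice and 0 for the difference of the VB effects, and Cyp4a32 in Western diet VB against control diet vehicle mice was at -0.0028. With a minimum count of 50 that value was -0.0013, and Cyp4a14 (adjusted p = 0.0366) and the family sum (-1.19) were called for the difference. Upper-quartile scaling also called Cyp4a14 there (adjusted p = 0.0489). DESeq2 called 3 members for VB on the Western diet, 2 for the diet in vehicle mice and 5 for the difference, and the family sum at -0.77 for VB on the Western diet and -1.18 for the difference. Limma-voom called 2 members for VB on the Western diet and 3 for the difference. With quality weights it called 2 there and 4 for the difference, and the family sum for the difference (-1.23), and in Western diet VB against control diet vehicle mice Cyp4a31 was at -0.11 and Cyp4a32 at -0.031. Fits of only the groups compared called 1 member for the Western diet in VB mice and 1 for Western diet VB against control diet vehicle mice. Lane 1 alone called 1 for the difference. With Cyp4a14 alone over the Cyp4a12 pair, the ratio for the diet in vehicle mice was 1.33 and was not called. The cause of these changes was not tested.

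With the clock score as a covariate 0 members were called for VB on the Western diet, for the diet in vehicle mice and for the difference. Signs turned for VB on the control diet in Cyp4a10 (-0.27), Cyp4a14 (-0.19), Cyp4a32 (-0.027), Cyp4a12a (0.24), the Cyp4a10, Cyp4a31 and Cyp4a32 sum (-0.24) and the Cyp4a12 sum (0.030). They turned for VB on the Western diet in Cyp4a12a (-0.15) and the Cyp4a12 sum (-0.057), and for the difference in Cyp4a12a (-0.40) and the Cyp4a12 sum (-0.087). For the diet in vehicle mice they turned in Cyp4a10 (-1.09), Cyp4a14 (-3.22), Cyp4a31 (-0.13), Cyp4a12a (0.74), the Cyp4a10, Cyp4a31 and Cyp4a32 sum (-0.99) and the Cyp4a12 sum (0.62). In Western diet VB against control diet vehicle mice they turned in Cyp4a31 (-0.59), Cyp4a32 (-0.32) and Cyp4a12a (0.58). None of these values was called.

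Leaving out each mouse gave 0 to 4 called members for VB on the Western diet, 1 to 2 for the Western diet in VB mice and 0 to 4 for the difference. The family sum ranged from -1.04 to -0.63 for VB on the Western diet, from -0.92 to -0.50 for the Western diet in VB mice and from -1.45 to -1.04 for the difference. It was called without Western diet VB mouse 4 in all 3 and without control diet vehicle mouse 5 in the last. The ratio within the family ranged from 1.05 to 1.65 for VB on the control diet and from 1.13 to 1.72 for the diet in vehicle mice. In Western diet VB against control diet vehicle mice, Cyp4a31 ranged from -0.31 to 0.21, Cyp4a32 from -0.18 to 0.15 and the Cyp4a12 sum from -0.027 to 0.15.

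With the mouse number as a replicate block the family sum was called for the difference of the VB effects (-1.24, adjusted p = 0.0402 in edgeR's test), and so was Cyp4a31 (-1.57, adjusted p = 0.0478), which made 3 called members in place of 2. It changed no other call of a member. Of 30 same-numbered pairs of mice, 7 correlated above 0.1 in their deviations from group means (median 0.04). The highest, at 0.38, was mouse 4 of Western diet vehicle and Western diet VB. Differently numbered pairs were not computed for reference, so whether the numbers pair mice was not tested. The lowest raw counts of a member were 44 for Cyp4a14 and 65 for Cyp4a31 in 1 mouse.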
